A study of Homo sapiens with 2 samples.

Results

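Desmosomes are junctions that fasten the intermediate filaments of neighbouring epithelial cells to each other. Desmogleins and desmocollins, which are cadherins, span the membrane and bind across the cell gap, plakoglobin and plakophilins, which are armadillo-repeat proteins, gather on their cytoplasmic tails, and desmoplakin links that plaque to keratin filaments. In simple and glandular epithelia such as those of the lung, the cadherins in use are mainly desmoglein 2 and desmocollin 2. The 7 genes described here were chosen by name, as rows of the authors' deposited table called DSP, DSG2, DSC2, PKP2, PKP3, PKP4 or JUP. All 7 were found among 27655 genes, once each.

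Poly-A RNA was sequenced from PC9-BrM3, a subline of the lung adenocarcinoma line PC9 that metastasises to brain, in routine culture. GEO lists 1 sample with the genotype PCDH1 knockdown, titled shPCDH1, and 1 with the genotype WT, titled shNC. The comparison asked how expression differs with and without knockdown of the protocadherin PCDH1. This is a single cell line, and the number of hairpins is not given in the sources used here. The deposited table sets a group with the code 8 against one with the code 7, and no label says which code is the knockdown, so every direction below is group 8 relative to group 7. PCDH1 itself had a log2 fold change of -1.38 ± 0.14 there, which puts group 8 at 38.5% of group 7 but does not assign the codes. Levels in the 6 coded libraries were not used, for the same reason, so a level, a depth or a spread per library is not given, and whether epithelial marker transcripts were abundant was not checked. Each log2 fold change is given ± a standard error worked back from its deposited p-value as if from a Wald test, and a gene is called when the authors' adjusted p is under 0.05. Separate cultures are nowhere stated, so those p-values may rest on technical spread alone.

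In the authors' deposited table, 1 desmosome gene was called higher in group 8 and 1 lower, and 5 were not called. DSC2, which encodes the adhesive cadherin desmocollin 2, was higher, at 160% of its group 7 level. PKP3, which encodes plakophilin 3, a plaque protein that clusters and stabilises desmosomal cadherins, was lower, at 61.1% of its group 7 level. DSP, the gene of desmoplakin, on which the filament link of every desmosome depends, was at 99.2% of its group 7 level and was not called. Of the 7 fold changes 4 were positive and 3 negative, but 5 of these signs belong to genes that were not called.

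Counts of this size are read against the whole table. Of all 27655 genes 14.1% were called, and of the 18002 with an adjusted p below 1, which include all 7 desmosome genes, 21.6% were called, 10.4% higher and 11.2% lower. The 2 calls among 7 genes are near that background. The median log2 fold change of the 7 was 0.23, beside 0.0048 over the 13609 protein-coding genes among those 18002, and their median absolute log2 fold change was 0.26, beside 0.30. The implied standard errors of the 7 lay between 0.11 and 0.16, all below the median of 0.18 for those protein-coding genes.

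**Figure D1:**
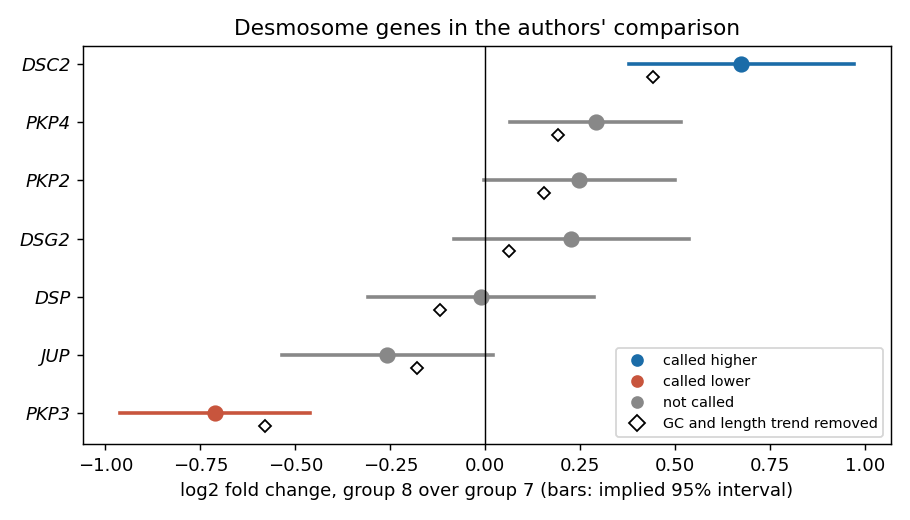
Log2 fold change of each desmosome gene, group 8 over group 7, from the authors' deposited table (filled points) with the 95% interval implied by the authors' p-value (bars). Open diamonds show the value after a trend with transcript GC content and length was removed. The bars of DSC2 and PKP3 lie well clear of 0 on opposite sides, that of PKP4 just clear of it, and those of the other 4 genes reach across it.

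The 2 desmosomal cadherin genes lie in one cluster on chromosome 18. Their promoter sequences are shown because the E-box CAGGTG, a word bound by the repressors of the SNAI and ZEB families, occurs in both. SNAI2 was called higher at 1.09 ± 0.40, with an adjusted p of 0.0354, and the other 3 genes of these families in the regulator list were not called: SNAI1 had -0.25 ± 0.24, ZEB1 0.72 ± 1.18 and ZEB2 3.07 ± 1.53. The ZEB1 and ZEB2 values have wide standard errors and, like those of DSC1 and DSC3 below, give no usable size. Sequences are from RefSeq on GRCh38.p14, run 5′ to 3′ on the gene's strand from 250 bases before its start to 50 bases after it, and have the E-box in capitals, read as CAGGTG or as its reverse complement CACCTG. For DSC2 the window is chr18:31102372-31102671, minus strand, and for DSG2 it is chr18:31497927-31498226, plus strand.
DSC2: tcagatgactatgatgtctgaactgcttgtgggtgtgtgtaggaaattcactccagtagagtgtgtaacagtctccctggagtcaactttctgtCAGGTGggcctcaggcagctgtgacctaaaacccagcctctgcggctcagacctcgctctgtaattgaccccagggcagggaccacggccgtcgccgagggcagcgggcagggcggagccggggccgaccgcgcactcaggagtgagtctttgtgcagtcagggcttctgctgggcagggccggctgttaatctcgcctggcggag
DSG2: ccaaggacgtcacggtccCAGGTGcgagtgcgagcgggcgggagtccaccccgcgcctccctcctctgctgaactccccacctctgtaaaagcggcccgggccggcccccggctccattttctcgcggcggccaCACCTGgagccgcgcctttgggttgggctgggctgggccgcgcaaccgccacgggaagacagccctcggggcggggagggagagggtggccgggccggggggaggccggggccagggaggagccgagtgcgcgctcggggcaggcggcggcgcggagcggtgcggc

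The DSC2 window has 1 E-box, 156 bases before the start, and the DSG2 window has 2, at 232 and 116 bases. RefSeq windows were at hand for 5 of the 7 genes, 8 windows in all because DSC2, PKP4 and JUP have a pair of starts each. The word was found in 4 of the 8: in the DSC2 window shown but not in the second DSC2 window, in the DSG2 window, in the DSP window 178 and 85 bases before the start, and in the second JUP window 54 and 43 bases before it. Of all 35116 RefSeq promoter windows of this length, 20.6% hold it on either strand. The word AACNGGTT, which GRHL factors bind, was found in none of the 8 and in 1.73% of all windows. These matches describe letters in a window and not binding.

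DSC2 (ENSG00000134755, chromosome 18, 31058840 to 31102522, minus strand) stood at 0.67 ± 0.15 on the log2 scale, with an adjusted p of 0.000133 in the authors' deposited table. The implied 95% interval ran from 130% to 196% of the group 7 level. Of those 13609 protein-coding genes, 19.9% had a larger absolute log2 fold change, so the difference was moderate for these libraries. DSG2 (ENSG00000046604, chromosome 18, 31498043 to 31549008, plus strand), the gene of the partner cadherin desmoglein 2, had 0.23 ± 0.16 with an adjusted p of 0.336 and was not called. Its interval, 94.4% to 145% of group 7, overlaps that of DSC2, and the difference between the 2 cadherins was not tested. The other desmocollin genes in the table gave no usable size: DSC1 had 0.61 ± 1.15 and DSC3 1.62 ± 4.04, each listed at an adjusted p of 1. DSG1, DSG3 and DSG4 had no row under those names in the authors' table.

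DSP (ENSG00000096696, chromosome 6, 7541575 to 7586717, plus strand) stood at -0.011 ± 0.15 on the log2 scale, with an adjusted p of 0.973. The implied interval ran from 80.8% to 122% of group 7. It covers only the spread behind the authors' p-value, which may be technical, and does not bound a difference between separate cultures. Among the other plakins, which also tie junctions and the cornified envelope to filaments, PPL, the periplakin gene, was lower at -0.48 ± 0.15 with an adjusted p of 0.0105, and EVPL, the envoplakin gene, had -0.31 ± 0.19 with no call.

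The armadillo genes held both the lowest value and 2 of the positive ones. PKP3 (ENSG00000184363, chromosome 11, 392614 to 404908, plus strand) stood at -0.71 ± 0.13 on the log2 scale in the authors' deposited table, with an adjusted p of 7.93e-07 and an interval of 51.3% to 72.6% of group 7. PKP2 (ENSG00000057294, chromosome 12, 32790745 to 32896840, minus strand), whose product recruits desmoplakin to the membrane and is the main plakophilin of heart muscle, had 0.25 ± 0.13 with an adjusted p of 0.162. PKP4 (ENSG00000144283, chromosome 2, 158456964 to 158682879, plus strand) encodes the plakophilin-related protein p0071, found at adherens junctions as well as desmosomes. It had 0.29 ± 0.11 with an adjusted p of 0.0523, just outside the calling threshold, and an interval of 105% to 143% of group 7. JUP (ENSG00000173801, chromosome 17, 41754604 to 41786931, minus strand), the gene of plakoglobin, which serves desmosomes and adherens junctions alike, had -0.26 ± 0.14 with an adjusted p of 0.194.

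The PKP3 interval overlaps neither that of PKP2 nor that of PKP4, from which PKP3 differed by -0.96 and -1.002 on the log2 scale. It does overlap that of JUP. The PKP4 and JUP intervals do not overlap each other. A test of these differences between genes was not made, because it would need the values per library.

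Transcript base composition moved with these values. Across 13563 protein-coding genes, the median log2 fold change was 0.20 in the lowest of 10 equal bins of transcript GC content, at most 38.8%, and -0.24 in the highest, at least 62.5%. The decline ran through every bin between them. In the lowest bin 19.8% of genes were called higher and 4.27% lower, and in the highest 6.93% and 24.3%. The called desmosome genes sit toward the ends that match their direction: the longest protein-coding transcript of DSC2 is 38.9% GC and that of PKP3 66.7%. Between them come DSG2 at 42.03%, PKP2 at 46.6%, PKP4 at 46.96%, DSP at 47.9% and JUP at 61.5%.

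**Figure D2:**
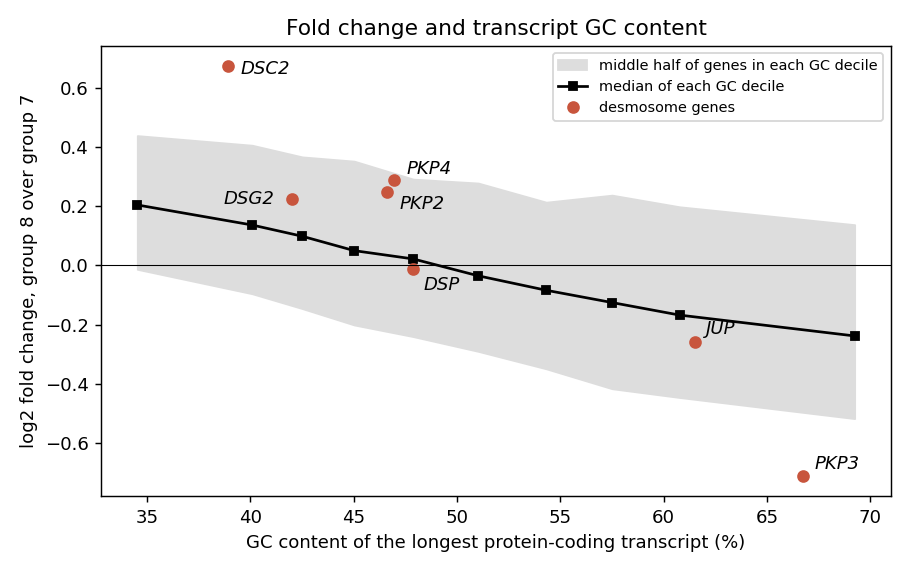
Log2 fold change, group 8 over group 7, against GC content of the longest protein-coding transcript. Squares and grey band show the median and the interquartile range of 13563 protein-coding genes in each of 10 equal bins by GC, at the middle of its range; red points are the 7 desmosome genes. The medians decline from 0.20 to -0.24, and DSC2 and PKP3 lie outside the band.

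With a smooth trend in transcript GC and length removed, DSC2 had a log2 fold change of 0.44, 1.5 times smaller on that scale than as deposited, with an adjusted p of 0.0177, and PKP3 had -0.58 with an adjusted p of 8.32e-05. Both calls remained. PKP4 then had 0.19 with an adjusted p of 0.229, PKP2 0.16, DSG2 0.062, DSP -0.12 and JUP -0.18, with adjusted p-values of 0.380 to 0.823. None of the 7 changed sign.

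The library protocol does not mark strand, so reads of a desmosome gene and of an antisense gene sharing its exons could not be told apart. DSG2-AS1 shares 171 exonic bases with DSG2, or 2.76% of its exonic bases, and PKP4-AS1 shares 418 with PKP4, or 4.39%. Neither antisense gene was called: DSG2-AS1 had 0.80 ± 1.36 and PKP4-AS1 0.95 ± 1.04. DSCAS, which overlaps the span of DSC2, shares none of its exonic bases and had -0.21 ± 2.81. Inside PKP2 lies the sense intronic gene AC087588.2, at -2.40 ± 2.24, and inside PKP4 the processed pseudogene AC005042.1, at -1.66 ± 2.76, also without shared exonic bases. Of all stretches of 50 bases in the GENCODE transcripts, none of those of DSP, PKP3 or JUP occurs in a transcript of another gene on either strand. That share was 0.399% for DSC2, 3.05% for DSG2, 3.84% for PKP4 and 5.17% for PKP2. The part of shared reads in these values was not tested.

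Genes flanking PKP3 were lower too. B4GALNT4, a glycosyltransferase gene 10.5 kb before it, had -0.38 ± 0.13 with an adjusted p of 0.0228, and SIGIRR, an inhibitory interleukin receptor family gene 0.808 kb after it, had -0.46 ± 0.16 with an adjusted p of 0.0252. Within 500 kb of PKP3, a width chosen after these values were seen, 11 of 36 other protein-coding genes were called lower, or 30.6%, and 4 higher, beside 13.4% and 12.7% of the 13609 protein-coding genes. The 4 higher ones were the interferon-induced genes IFITM1, IFITM2 and IFITM3 and the interferon regulatory factor gene IRF7. The median log2 fold change of the 36 was -0.33, or -0.20 with the GC and length trend removed, and their median transcript GC content was 63.5%. That content falls in the highest GC bin, where 24.3% of genes were called lower and 6.93% higher. Around JUP, 3 of 27 genes were called lower and 1 higher, with a median of -0.051. Around DSP, 1 of 9 was called higher (BLOC1S5 at 0.60 ± 0.21) and 1 lower (BMP6 at -1.71 ± 0.23). Around PKP2, 1 of 4 was higher (FGD4 at 0.71 ± 0.17), and around DSG2 1 of 4, which was DSC2 itself. The nearest protein-coding gene on either side was not called for any member other than PKP3. These flanking genes were DSC3 and DSC1 beside DSC2, DSC1 also beside DSG2, with values given above. The others were RIOK1 at 0.016 ± 0.13 and SNRNP48 at 0.22 ± 0.17 beside DSP, B4GALT6 at 0.56 ± 0.26 beside DSG2, YARS2 at -0.27 ± 0.14 and ALG10 at -0.066 ± 0.23 beside PKP2, CCDC148 at 0.58 ± 0.60 and TANC1 at 0.17 ± 0.17 beside PKP4, and HAP1 at 0.67 ± 0.33 and P3H4 at -0.31 ± 0.16 beside JUP.

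**Figure D3:**
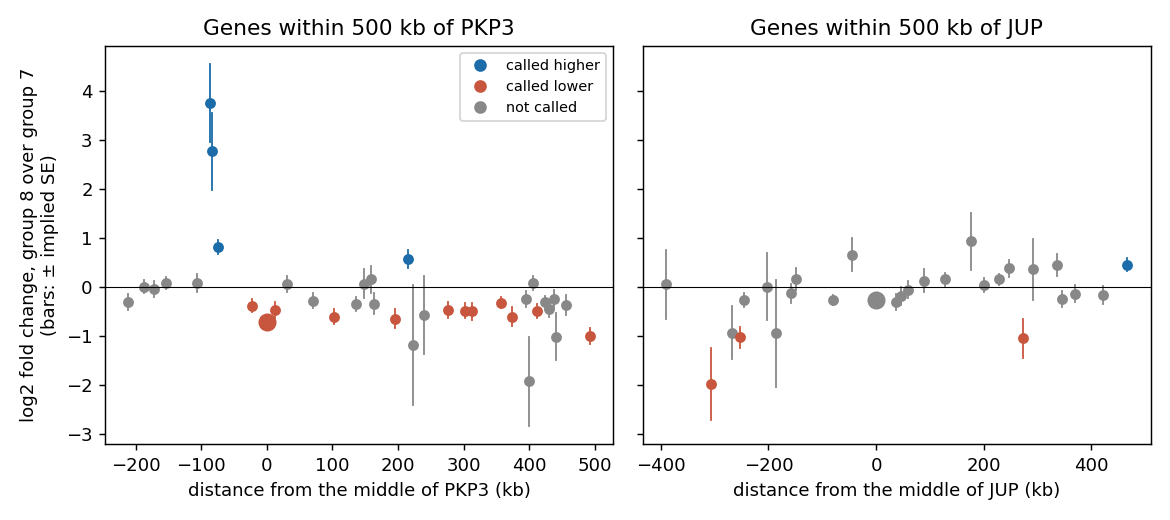
Log2 fold change of protein-coding genes (adjusted p below 1) within 500 kb of PKP3 (left) and JUP (right), by the distance of the gene's middle from the member's middle in kb; bars are ± the implied standard error and the large point is the member. Red points, called lower, make up 11 of the 36 neighbours of PKP3 and 3 of the 27 of JUP.

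The remaining desmosomal genes held 1 call, near the background. In a list of 10 such genes, 7 had a row in the table, of which 1 was lower (PPL), 0 higher and 6 not called. Of all 27655 genes 14.1% were called. PERP, a membrane protein gene of desmosomes, had -0.15 ± 0.12 with an adjusted p of 0.432. PKP1 at 3.43 ± 2.59 and CDSN at 1.34 ± 2.79, like DSC1 and DSC3, were listed at an adjusted p of 1. Over the 3 with an adjusted p below 1 the median was -0.31.

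Filament genes, whose products are the partners of desmoplakin, held 1 call higher and 3 lower among 12 measured, with a median of -0.31. Beside them stand 12.7% higher and 13.4% lower over the 13609 protein-coding genes, so that 1 higher call is near the background. The 3 were KRT15 at -1.02 ± 0.22, KRT7 at -0.70 ± 0.15 and KRT18 at -0.50 ± 0.17, the last 2 being keratins of simple epithelia, while KRT6A, a stress-induced keratin, was higher at 3.34 ± 0.41. KRT6A and other keratins have close paralogs, which limits their values.

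Adherens junctions, the actin-linked neighbours of desmosomes, held 5 genes called higher and 0 lower among 13 measured, with 8 not called and a median of 0.30. The share of protein-coding genes called was 12.7% higher and 13.4% lower. The higher ones were the classical cadherin genes CDH1 at 0.38 ± 0.11, CDH3 at 0.44 ± 0.13 and CDH2 at 1.202 ± 0.17, NECTIN3, a nectin gene, at 2.43 ± 0.28, and ARVCF at 0.52 ± 0.20, which encodes an armadillo protein related to PKP4. The catenin genes CTNNB1 at -0.0086 ± 0.12, CTNND1 at -0.029 ± 0.11 and CTNNA1 at 0.28 ± 0.12, with an adjusted p of 0.0825, were not called.

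Of 24 regulators of desmosomes measured, 3 were called higher and 6 lower, with a median of -0.024. Beside 12.7% and 13.4% of protein-coding genes, the higher count is near the background. Of the grainyhead factors, which activate epithelial junction genes, GRHL1 was higher at 0.83 ± 0.15, and GRHL2 at -0.40 ± 0.11 and GRHL3 at -1.02 ± 0.22 were lower. SNAI2, the repressor Slug, and GSK3B, a kinase that phosphorylates desmoplakin, at 0.34 ± 0.13 with an adjusted p of 0.0473, were also called higher. Both lost their call at a threshold of 0.01 and with adjustment over all p-values of the table, which left 1 higher regulator, GRHL1. PRKCA, the kinase that loosens hyperadhesive desmosomes, was lower at -0.57 ± 0.16, as were KLF5 at -0.52 ± 0.14, TMEM43 at -0.34 ± 0.11 and the protease gene MMP9 at -3.02 ± 0.68. ADAM10 at 0.19 ± 0.15 and ADAM17 at 0.16 ± 0.12, whose proteases shed desmoglein 2, were not called.

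**Figure D4:**
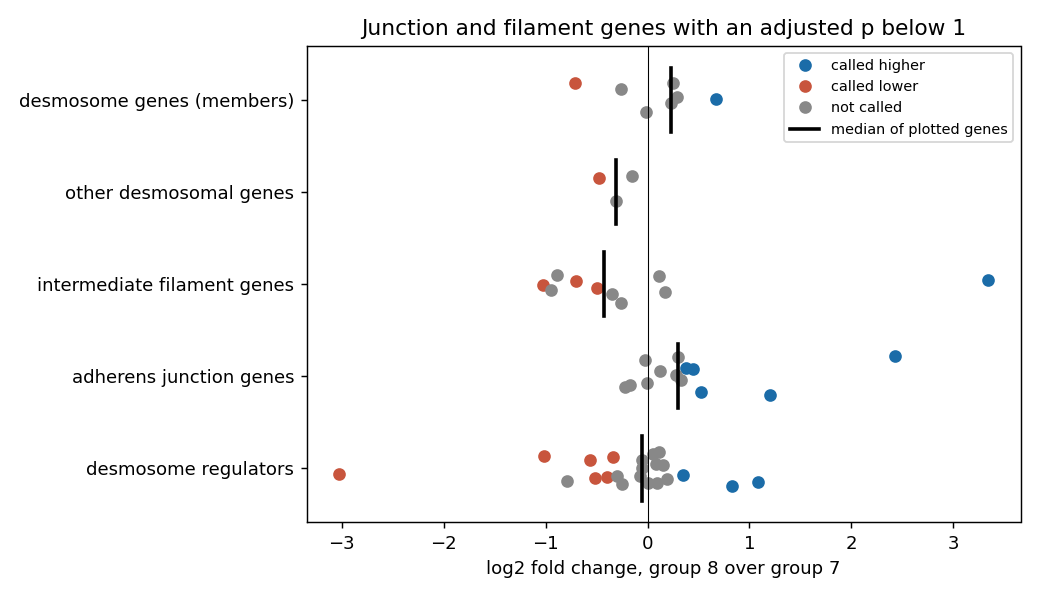
Log2 fold change, group 8 over group 7, of each gene with an adjusted p below 1 in the desmosome set and in 4 related lists; black lines are medians of the plotted genes. DSC2 and PKP3 are the only coloured points of the desmosome row, and every coloured point of the adherens junction row is to the right of 0.

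Among markers of other cell types, 17 leukocyte, astrocyte, fibroblast, endothelial and muscle genes were measured, with 5 listed at an adjusted p of 1. The 17 gave 4 calls higher and 1 lower, beside 12.7% higher and 13.4% lower over the 13609 protein-coding genes. The higher ones were the leukocyte genes ITGAM at 5.28 ± 0.85 and CSF1R at 1.84 ± 0.24, the astrocyte gene SLC1A3 at 0.85 ± 0.18 and the fibroblast gene COL1A1 at 1.04 ± 0.17, and the lower one was the endothelial gene PECAM1 at -1.73 ± 0.63. Leukocyte genes with no call included PTPRC at -0.12 ± 0.69, CD14 at -0.062 ± 0.50 and CD3E at -2.63 ± 3.26. Of the 5 epithelial markers, with a median of -0.26, CDH1 was higher, KRT18 lower and 3 not called, KRT8 at -0.35 ± 0.17, KRT19 at -0.26 ± 0.15 and EPCAM at 0.079 ± 0.10. The part of these in the desmosome values was not tested.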

How the data were processed

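Per the submitters' processing notes, the tools were HISAT2 2.0.5, DESeq2 1.20.0, featureCounts 1.5.0-p3 and CASAVA, without roles or parameters. The genome build is not given in the sources used here. The 7 desmosome genes have the same start and end in GENCODE release 29 (GRCh38), whose transcripts were used for exons, GC content and shared stretches.

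Per the file headers, the authors deposited a log2 fold change of group 8 over group 7, with a p-value and an adjusted p-value, for each gene. Gene length, start and end, other values deposited per the file headers, are in bases. The 20 columns of values per library or coded group were not used, because no label ties them to a sample. Depth per library is therefore not given and no count model was fitted. An adjusted p of 1 is listed for 9653 genes, and 2 have no p-value.

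The implied standard error is the size of the log2 fold change over the normal quantile that its two-sided p-value gives, and intervals are 95%. Calls are adjusted p under 0.05. The trend with GC content and length was quadratic in both, fitted over 13563 protein-coding genes with log2 fold changes limited to 2 in size, with Benjamini-Hochberg adjustment over them, and was added after the values were seen. The adjustment and standard error were tested on simulated data. Python 3.11.15, NumPy 2.4.6, pandas 2.3.3, SciPy 1.17.1 and Matplotlib 3.10.9 were used.

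The members, lists and tests were chosen with earlier results of these data known. Genes named are the 7 members, PCDH1, list genes that were called, other desmosomal genes, and genes overlapping or flanking a member. Uncalled genes of the filament, adherens junction, regulator and marker lists, and the genes within 500 kb, were named after their values were seen.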

Additional observations from a re-analysis of the deposited data

How the results depend on the processing

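Centring on the protein-coding median moved no desmosome gene across 0 or across the threshold. Removal of the GC and length trend, which was chosen after seeing the data, moved none across 0 and gave 1 gene higher and 1 lower. In that setting 25.1% of the 13563 protein-coding genes were called. Against the authors' adjusted p-values, trend removal moved no desmosome gene across the threshold. With adjustment over protein-coding genes alone, PKP4 was called before trend removal, at 0.0433, and not after it, at 0.229. The DSC2 and PKP3 calls held with centring and with trend removal. They also held at an adjusted p of 0.01, with a minimum absolute log2 fold change of 0.5, and with Benjamini-Hochberg adjustment over all p-values of the table. Of all genes 9.21%, 10.8% and 12.5% were called in these settings, in that order. The count of higher desmosome genes became 2, with PKP4, at a threshold of 0.10 and with adjustment over protein-coding genes alone, where PKP4 had an adjusted p of 0.0433. Of all genes 17.8% were called at 0.10 and 13.5% with adjustment over protein-coding genes alone. Other genes could not be called in that last setting, so 13.5% understates the share among protein-coding genes. Of the 13563 with a GC value, 3741 were called before trend removal. With a minimum log2 fold change of 1 both desmosome counts were 0, where 3.90% of all genes were called. That minimum also left 0 lower other desmosomal genes, 1 lower filament gene, 2 higher adherens junction genes, and 1 higher and 2 lower regulators. A minimum of 0.5 left 0 lower other desmosomal genes and 3 higher adherens junction genes. A threshold of 0.01 left 0 lower other desmosomal genes and 1 higher regulator, and adjustment over all p-values also left 1 higher regulator. The other 62 of 76 alternative values kept their direction and side of the threshold, or their count within 1.5 times. The centred values are among them, and PKP4 after trend removal is counted there against the authors' adjusted p of 0.0523. Leaving out each library was not run, because library values were not used. No paired analysis was possible because the columns carry no replicate number tied to a label.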
